A study of Bos taurus with 3 samples.

Results

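The genes described here encode proteins of miRNA silencing and of RNA binding: Argonaute 2, written EIF2C2 in the tables, its partner TNRC6B, the splicing regulators MBNL2 and CELF2, and the nuclear RNA-binding protein HNRNPU. They were taken by gene name from the authors' lists of Argonaute sites in bovine retina. All 5 genes were found, with 10 of the 402 listed sites, among 280 named genes. The study sequenced RNA that co-purified with Argonaute after ultraviolet light had linked it to protein in clusters of dissected retinal cells (HITS-CLIP; 3 exposures of 400 mJ/cm2). There was 1 group of 3 replicates, from cattle labelled as of mixed strain, with no control. The labels do not tie the replicates to separate animals, so their spread may be technical. Each listed site was a peak in all 3 replicates, and its tags are the sequenced fragments counted in that peak. In all 1206 peaks the tags were fewer than the length in nt by at least 19, so short peaks held few. Whether peak length capped the counts was not tested.

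Argonaute 2 holds a miRNA and uses it as a guide to complementary stretches of mRNA, most often in the 3' UTR. TNRC6B belongs to the GW182 family, which binds Argonaute and brings in the enzymes that shorten poly(A) tails. MBNL and CELF proteins bind pre-mRNA and often act on the same alternative exons in opposite directions, in muscle and in brain. HNRNPU is an abundant nuclear protein that binds RNA and chromatin. These genes are themselves transcribed into mRNAs that miRNAs can target, and the sites below lie in those transcripts.

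All listed sites together held 6421, 5779 and 4114 tags in replicates 1, 2 and 3, which covers the listed sites only and is not the depth of the libraries. A median site held 12, 10 and 7 tags in the same order, so values of single sites carry a large counting error. Of 15 rod and cone markers, 13 carried a listed site, against 1.11% of 21664 protein-coding gene symbols of RefSeq. None of 17 markers of Müller glia, pigment epithelium, blood and vessels did. At so low a share over all genes, 0 of 17 says little about those cells. The mRNA levels were not measured. A tall site in an abundant transcript and a tall site in a strongly bound transcript therefore cannot be told apart.

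Together the 10 sites held 195, 135 and 85 tags in replicates 1, 2 and 3. That was 3.04%, 2.34% and 2.07% of the tags in all listed sites, or 2.48% ± 0.501 (SD, n = 3), where the 10 sites are 2.49% of the sites listed. The 10 sites, 5 of them of TNRC6B, lay near the middle of the list of sites: the median of their heights (mean tags of the 3 replicates) was 10.3, as it was over all 402 sites. Among themselves the sites ran from 7.67 to 35.3 mean tags. The highest were the MBNL2 site in the 5' UTR, the HNRNPU site and a TNRC6B site in the 3' UTR, and 5 of the 10 exceeded the median.

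**Figure D1:**
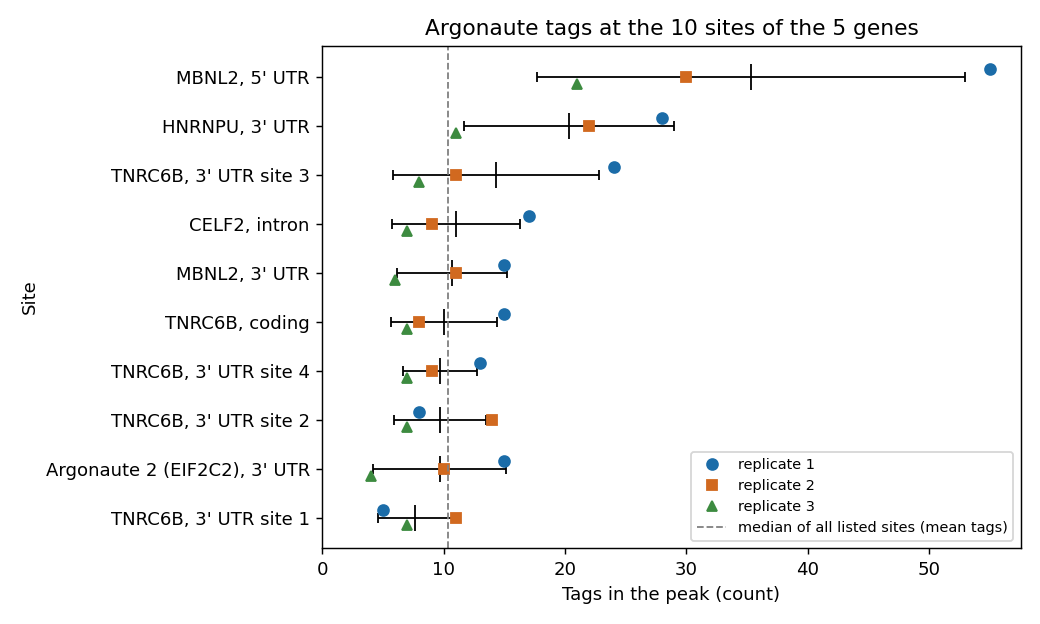
Tags counted in the peak of each replicate (horizontal axis) at the 10 sites, in order of their mean; the vertical tick and bar are mean ± SD (n = 3) and the dashed line is the median of the mean tags over all 402 sites. The MBNL2 site in the 5' UTR has the most tags in every replicate (55, 30 and 21), and the first 2 TNRC6B sites of the 3' UTR are highest in replicate 2.

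The Argonaute 2 transcript was itself among those with a listed site. EIF2C2 carried 1 site, in its 3' UTR on the plus strand of chromosome 14 (2422667 to 2422777; coordinates are those of the authors' files, for a genome build not given in the sources used). It held 15, 10 and 4 tags in replicates 1, 2 and 3, or 9.67 ± 5.51 (SD, n = 3). Replicate 3 was the low value: 2.74% of all sites had fewer tags in that replicate, against 61.9% in replicate 1 and 43.3% in replicate 2. The peak also narrowed, from 111 nt in replicate 1 to 75 nt in replicate 2 and 26 nt in replicate 3. Per length the replicates were closer, with 13.5, 13.3 and 15.4 tags per 100 nt of peak. Over the length less 19 nt they were further apart, with replicate 3 highest, at 16.3, 17.9 and 57.1 tags per 100 nt. The summits lay at 2422722 in replicates 1 and 2 and at 2422727 in replicate 3, a span of 5 nt, and the 26 nt of the shortest peak lay within the other 2 peaks. By its tallest site EIF2C2 ranked 147 of 280 named genes, level with 5 other genes.

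TNRC6B carried 5 sites, more than any other gene of the group, and 65, 53 and 36 tags in all, or 51.3 ± 14.6 (SD, n = 3). Among the 280 named genes 7 had 5 or more sites. By tags summed over its sites TNRC6B ranked 14 of 280, but by its tallest site it ranked 71, level with 4 other genes. All 5 sites lay on the plus strand of chromosome 5 within 19.9 kb of genome. The most upstream was in coding sequence (118208502 to 118208592), and 4 were in the 3' UTR, the first of them 8.34 kb further downstream. The 4 sites of the 3' UTR spanned 11.5 kb.

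The TNRC6B coding site held 15, 8 and 7 tags, or 10 ± 4.36 (SD, n = 3), with summits within 11 nt. It ranked 31 of 81 sites in coding sequence, where the median was 9 mean tags. The first site of the 3' UTR (118216930 to 118216998) held 5, 11 and 7 tags, or 7.67 ± 3.06 (n = 3), the lowest mean of the 10 sites. The second (118217009 to 118217185) held 8, 14 and 7 tags, or 9.67 ± 3.79 (n = 3). In both of these sites replicate 2 was highest, unlike the other 8 sites of the group, where replicate 1 was.

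These 2 sites lay side by side, 10 nt apart at their outermost ends. Their peaks were 101 nt apart in replicate 1, 23 nt in replicate 2 and 50 nt in replicate 3, with the peak of the second site beginning further upstream in replicates 2 and 3. Its length was 86, 146 and 103 nt in the 3 replicates. The first site was compact, with summits within 2 nt and peaks of 43, 56 and 54 nt.

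The third TNRC6B site of the 3' UTR (118220794 to 118220925) was the tallest of the gene, with 24, 11 and 8 tags, or 14.3 ± 8.50 (SD, n = 3). It lay 3.61 kb downstream of the second site. That rank rested on replicate 1: without it the site averaged 9.5 tags, below the second site with 10.5, which also led in replicate 2. In replicate 3 the third site again held the most, with 8 tags against 7 at each of the other TNRC6B sites. Against the coding site it held 1.60, 1.38 and 1.14 times as many tags in replicates 1, 2 and 3. Per 100 nt of peak the same ratios were 1.02, 0.829 and 0.821, so the coding site was higher in replicates 2 and 3, and at the summit they were 1.33, 1.14 and 0.833. The peaks of the third site ended at the same base, 118220925, in all 3 replicates, which was so at the 3' end of 3.98% of all sites. Its summits were nonetheless spread over 39 nt, the widest span found among the listed sites. The most downstream site (118228311 to 118228435) lay 7.39 kb further downstream and held 13, 9 and 7 tags, or 9.67 ± 3.06 (n = 3).

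**Figure D2:**
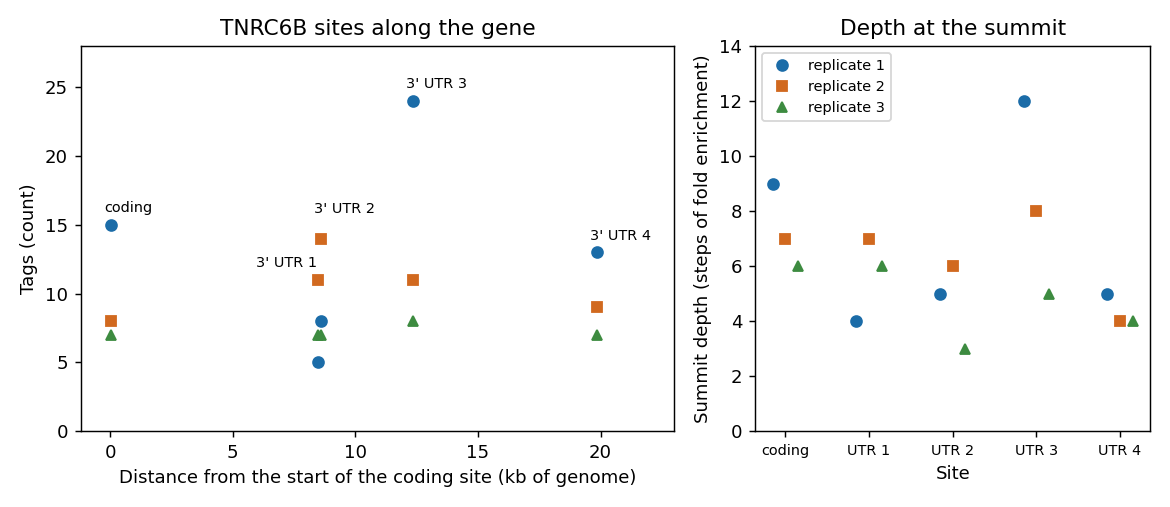
Left, tags in each replicate (vertical axis) at the 5 TNRC6B sites against their distance in kb from the start of the coding site; right, the depth at the summit, in steps of the authors' fold enrichment. The third site of the 3' UTR is highest in replicate 1 (24 tags, summit depth 12), while the neighbouring first and second sites are highest in replicate 2 (11 and 14 tags).

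MBNL2, a zinc finger protein that regulates alternative splicing, had the tallest site of the group. It lay in the 5' UTR on the plus strand of chromosome 12 (71803470 to 71803703) and held 55, 30 and 21 tags, or 35.3 ± 17.6 (SD, n = 3). In replicates 1, 2 and 3 it exceeded 98.5%, 91.5% and 91.8% of all sites, so it was among the taller sites in each. Only 1 other listed site was in a 5' UTR, that of the rod transcription factor NRL, with 8, 6 and 6 tags (NRL was chosen for its class after the values were seen). MBNL2 ranked 7 of 280 genes by its tallest site, level with 1 other gene. The rank was 17 without replicate 1, 32 by depth at the summit and 40 by fold enrichment. That depth is the fold enrichment counted in steps, so the last 2 ranks are not separate checks.

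The second MBNL2 site lay in the 3' UTR (71937595 to 71937704), 134 kb downstream in the genome. It held 15, 11 and 6 tags, or 10.7 ± 4.51 (SD, n = 3), and its summit was at 71937649 in all 3 replicates. The 5' UTR site held 3.67, 2.73 and 3.50 times as many tags in replicates 1, 2 and 3, a mean log2 ratio of 1.71 ± 0.23 (SD, n = 3). This was higher in 3 of 3 replicates, but the exact sign-flip permutation test over 3 pairs cannot go below p = 0.25 (two-sided, p = 0.25). The peaks differed in length as well: the 5' UTR peaks were 208, 219 and 194 nt long and those in the 3' UTR 98, 74 and 48 nt. Per 100 nt of peak the 5' UTR site held 26.4, 13.7 and 10.8 tags and the 3' UTR site 15.3, 14.9 and 12.5, so the order of the sites turned in replicates 2 and 3 (mean log2 ratio 0.15 ± 0.55, n = 3, exact permutation test, p = 1).

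CELF2, an RNA-binding protein that regulates splicing and mRNA stability, had 1 site, the only 1 of the group on the minus strand and the only 1 in an intron. It lay on chromosome 13 (11747647 to 11747735) and held 17, 9 and 7 tags, or 11 ± 5.29 (SD, n = 3). Among 34 sites in introns it ranked 8, where the median was 7.83 mean tags. The 3 summits fell within 7 nt. In replicate 2 the peak was 39 nt long and all 9 tags covered its summit. In a peak so short the tags have little room to lie apart, so this share may say little beyond the length. In replicates 1 and 3 the depth at the summit was 10 of 17 and 4 of 7 tags. CELF2 ranked 120 of 280 genes, level with 7 others.

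HNRNPU had 1 site, in its 3' UTR on the plus strand of chromosome 16 (29691535 to 29691643). It held 28, 22 and 11 tags, or 20.3 ± 8.62 (SD, n = 3), and exceeded 86.3%, 85.8% and 72.9% of all sites in replicates 1, 2 and 3. Among the 223 sites in 3' UTRs, whose median was 11.3 mean tags, it ranked 32. The gene ranked 38 of 280, level with 1 other gene. The tags were packed into peaks of 86, 109 and 67 nt, which gave 32.6, 20.2 and 16.4 tags per 100 nt, the most of the group in replicates 1 and 3. Its summits were spread over 26 nt.

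The order of the 10 sites depended on whether the length of the peak was taken into account. In tags, the MBNL2 site of the 5' UTR exceeded the HNRNPU site 1.96-, 1.36- and 1.91-fold in replicates 1, 2 and 3 (mean log2 ratio 0.78 ± 0.29, n = 3). In tags per 100 nt it was lower in all 3 replicates, at 0.812, 0.679 and 0.659 of the HNRNPU value (mean log2 ratio -0.49 ± 0.16). At the summit the depths were 16, 11 and 6 for MBNL2 and 12, 8 and 7 for HNRNPU, so MBNL2 was deeper in replicates 1 and 2 and shallower in replicate 3. By the exact permutation test these gave p = 0.25, 0.25 and 0.5 (two-sided, n = 3), where 0.25 is the smallest p possible.

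Lower down, HNRNPU exceeded the third TNRC6B site of the 3' UTR in tags in 3 of 3 replicates (1.17-, 2- and 1.38-fold). The third TNRC6B site exceeded the CELF2 site in tags in 3 of 3 as well (1.41-, 1.22- and 1.14-fold). Per 100 nt of peak it did so in 1 of 3, with ratios of 0.930, 0.701 and 1.20, and by summit depth in 2 of 3, with 1.20, 0.889 and 1.25. For HNRNPU over the third TNRC6B site the ratios were 1.79, 1.25 and 1.31 per 100 nt and 1, 1 and 1.40 at the summit. The CELF2 site and the MBNL2 site of the 3' UTR could not be ordered, since CELF2 had more tags in replicates 1 and 3 and fewer in replicate 2. In unscaled tags the remaining sites, all with means between 7.67 and 10.7, lay within each other's SD. That SD includes the difference in total tags between the replicates. Scaled by the median ratio, the most downstream TNRC6B site held 9.41 ± 1.15 tags (SD, n = 3). The first TNRC6B site of the 3' UTR then held 7.84 ± 3.30 (n = 3), a mean outside the SD of the former. Most pairs of these sites were not compared within replicates. In all, 7 pairs of sites, chosen after the values were seen, were compared on 3 measures, and no pair could reach a p below 0.25.

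**Figure D3:**
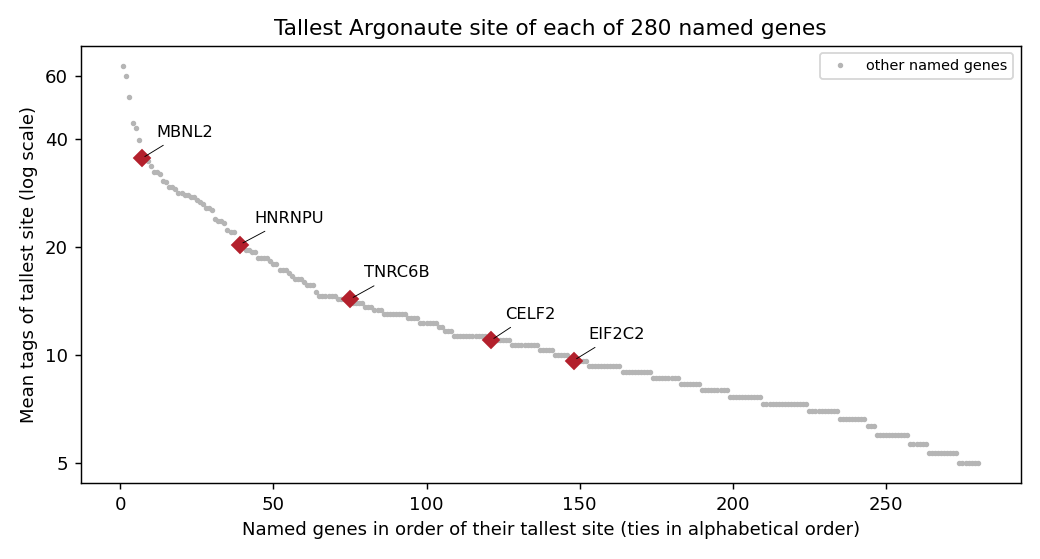
Mean tags of the tallest site (vertical axis, log scale) of each of the 280 named genes in order of height; red diamonds are the 5 genes. MBNL2 (35.3) and HNRNPU (20.3) lie in the steep left part, followed by TNRC6B (14.3), CELF2 (11) and EIF2C2 (9.67) at ranks 71, 120 and 147.

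Replicate 1 held the most tags at 8 of the 10 sites, and at these 8 the tags fell in the order of replicates 1, 2 and 3, as they did at 160 of all 402 sites. Over all sites replicate 1 was highest at 225 of 402, or 56%, and replicate 2 at 118, or 29.4%. The ratio of replicate 1 to replicate 3 had a median of 2.46 over the 10 sites and 1.55 over all sites. It was greatest at the EIF2C2 site, 3.75, and lowest at the first TNRC6B site of the 3' UTR, 0.714. An exact multinomial test asked at every site whether the 3 tag counts differed beyond counting noise, after scaling the replicates by their median ratio. It called 20 of the 402 sites (4.98%, Benjamini-Hochberg adjusted p under 0.05) and 0 of the 10.

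Without adjustment 1 of the 10 sites had a p under 0.05, as did 59 of all 402 (14.7%). That site was the MBNL2 site of the 5' UTR (exact multinomial test, p = 0.0483, adjusted p = 0.329). The remaining adjusted p-values of the 10 sites ran up to 0.996. The third TNRC6B site of the 3' UTR, with 24, 11 and 8 tags, had an adjusted p of 0.562 (exact multinomial test), and the EIF2C2 site one of 0.757. Without scaling the replicates, the MBNL2 site of the 5' UTR passed (exact multinomial test, adjusted p = 0.00466), together with 11.7% of all sites.

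The peaks of the 3 replicates overlapped at every site. The stretch shared by all 3 ran from 26 nt at EIF2C2 to 193 nt at the MBNL2 site of the 5' UTR, with a median of 43.5 nt against 46 nt over all sites. The 3 summits of a site lay a median of 14 nt apart, against 9 nt over all sites. They coincided at the MBNL2 site of the 3' UTR and lay within 2 nt at the first TNRC6B site of the 3' UTR. At 4 of the 10 sites the span exceeded 25 nt, a cut not set in advance, which was so at 13.4% of all sites. The 4 were the third and the most downstream TNRC6B sites of the 3' UTR, the MBNL2 site of the 5' UTR and the HNRNPU site. No listed site had a span above 39 nt, and whether the listing set that limit was not tested.

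**Figure D4:**
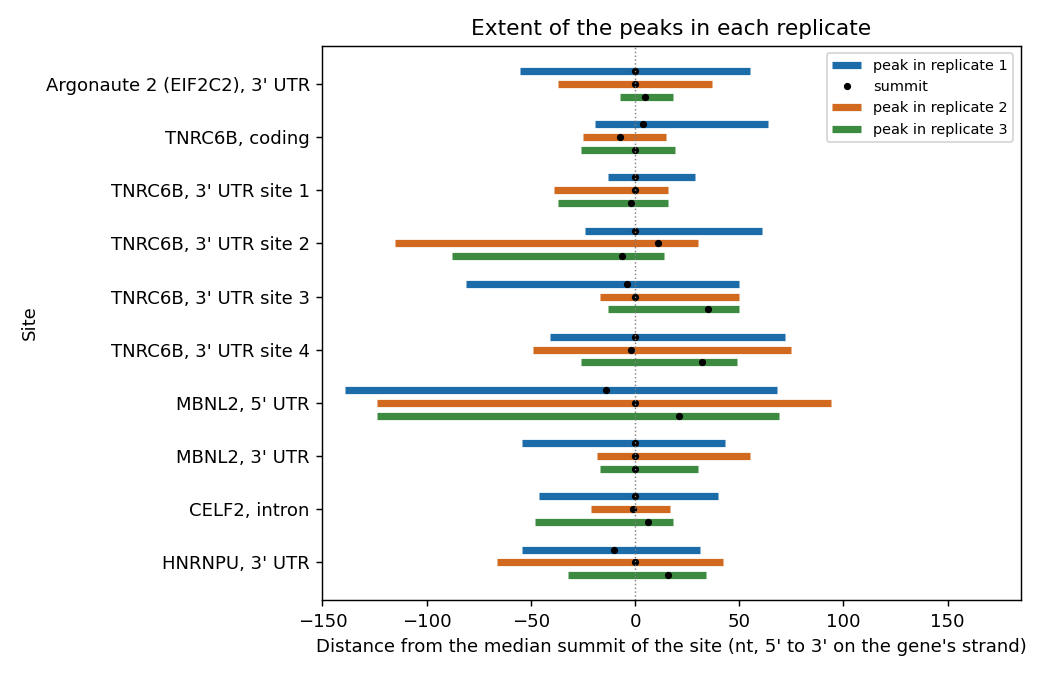
Extent of the peak in each replicate (coloured bars) and its summit (black points) at the 10 sites, as distance in nt from the median of the 3 summits, 5' to 3' on the strand of the site. The MBNL2 peaks of the 5' UTR are the longest (208, 219 and 194 nt), and the EIF2C2 peak is 26 nt long in replicate 3.

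The authors' fold enrichment of a peak, a ratio over an undescribed background, rose in whole steps within each replicate and strand, and its number of steps is called the depth at the summit here. The depth at the 10 sites ran from 4 to 16 in replicate 1, 4 to 11 in replicate 2 and 3 to 7 in replicate 3. Over all listed peaks the depth was at most 20, while the tags reached 219. The broadest of the 10 sites had the smallest share of its tags at the summit in replicates 1 and 3. At the MBNL2 site of the 5' UTR the depth was 29.1%, 36.7% and 28.6% of the tags in replicates 1, 2 and 3, against medians of 60%, 62.5% and 66.7% over all sites. At the EIF2C2 site it was 60%, 80% and 100%, and in replicate 3 all 4 tags covered the summit. The peak of replicate 3 was 26 nt long, which leaves the tags little room to lie apart. By the authors' −log10 p, multiplied by 10 in the tables, the 10 sites ran from 204.45 at the first TNRC6B site of the 3' UTR to 2006.67 at the MBNL2 site of the 5' UTR, both in replicate 1. The lowest value of any listed peak was 200.02.

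By the authors' location class 7 of the 10 sites lay in 3' UTRs, 1 in coding sequence, 1 in a 5' UTR and 1 in an intron. Over all 402 sites 55.5% lay in 3' UTRs, 20.1% in coding sequence, 0.498% in 5' UTRs and 8.46% in introns. Every one of the 5 genes but CELF2 had a site in its 3' UTR. Sites of a gene share a transcript, and 4 of the 7 are those of TNRC6B.

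Other genes of the same roles were taken from 9 lists with 129 genes. In all, 9 of the 129 carried a listed site, 5 of them the genes described above, which were chosen because they did. Of the other 124 genes 4 carried a site, or 3.23%, against 1.11% of 21664 protein-coding gene symbols of the RefSeq table. The lists hold genes that many tissues express, and how far mRNA levels account for these shares was not tested.

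In the silencing machinery, EIF2C2 was the only 1 of 4 Argonautes and TNRC6B the only 1 of 3 GW182 genes with a site. None of 8 genes of miRNA biogenesis, such as DROSHA and DICER1, and none of 27 genes of deadenylation and decapping carried a site. Absence from the list does not show that a transcript was free of Argonaute. Of 9 MBNL and CELF genes, MBNL2 and CELF2 were listed.

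Among 24 hnRNP and PTB genes HNRNPU was joined by HNRNPF and HNRNPH2, related proteins that bind G-rich RNA in pre-mRNA. HNRNPF had a 3' UTR site on chromosome 28 (12456707 to 12456845, minus strand) with 27, 16 and 9 tags, or 17.3 ± 9.07 (SD, n = 3). HNRNPH2 had one on chromosome X (30881199 to 30881286, plus strand) with 23, 11 and 10 tags, or 14.7 ± 7.23 (n = 3). All 3 hnRNP sites lay in 3' UTRs, as did 55.5% of all listed sites. They had the most tags in replicate 1, as did 56% of all listed sites. HNRNPH2 has close relatives in the genome, and tags shared with them could have been assigned either way.

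Of 12 SR protein genes SRSF6, a splicing factor, was listed, with a 3' UTR site of 22, 5 and 5 tags on chromosome 13 (72809500 to 72809637, plus strand). This was 10.7 ± 9.81 (SD, n = 3), and the spread of its replicates did not pass the exact multinomial test (adjusted p = 0.0835). Its peak was 138 nt long in replicate 1 and 42 and 46 nt in replicates 2 and 3. Of 28 regulators of mRNA stability and translation ZFP36L2, which binds AU-rich elements and destabilises mRNA, had a 3' UTR site of 14, 5 and 9 tags on chromosome 11 (26935721 to 26935834, minus strand), or 9.33 ± 4.51 (n = 3). None of 14 other splicing factors, among them the neuronal NOVA and RBFOX genes, carried a site.

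The genes most like each of the 5 were found by the distance between log2 summed tags in the 3 replicates, over 3 values per gene. With 3 values such likeness is a matter of level and of the share of each replicate. EIF2C2 lay nearest to SLC35B1 (17, 10 and 5 tags, distance 0.369), then TMEM108 and SLC44A1. TNRC6B lay nearest to XIAP (62, 69 and 39 tags in 3 sites, distance 0.404), then PRPH2 and TPD52. For MBNL2 they were PPP3R1 (80, 49 and 29 tags in 3 sites, distance 0.337), TPD52 and TROVE2. CELF2 was nearest to KBTBD3 (17, 8 and 8 tags, distance 0.257), then BTBD7 and the gene written TSC22DA, and HNRNPU to ATP1B2 (25, 24 and 12 tags, distance 0.241), then DNAL1 and CAMTA1.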

How the data were processed

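Argonaute HITS-CLIP libraries of bovine retina, 3 replicates of 1 group, were analysed from the authors' tables of sites, 1 for each strand. CASAVA 1.8.1 and GSNAP appear in the submitters' processing notes, with no role. How peaks were called, on which genome build and how sites were selected is not given in the sources used. Per the file headers, each site has a peak per replicate with its position, length, summit, tags (a count), −log10 p-value times 10, and fold enrichment (a ratio over an undescribed background). The fold enrichment was a whole multiple of a step in all 1206 peaks (tolerance 0.02 of a step). Gene names were upper-cased and location classes taken as they stand.

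A site's height is the mean of its tags without scaling, and its printed start and end are the lowest start and highest end among its 3 peaks, as in the files. The replicates were compared by an exact multinomial test at all 402 sites, with Benjamini-Hochberg adjustment and replicates scaled by the median ratio. The test was checked only on simulated free counts, without the limit by peak length given below, so that check does not cover it. Pairs of sites were compared by exact sign-flip permutation over replicates. Genes were matched to the RefSeq table of ARS-UCD2.0 for names only. Counting error alone is covered, since no molecular identifiers are described. The multinomial test treats tags as free counts, although no peak held more tags than its length in nt less 19. Members and lists were chosen with earlier results of these data known. Named genes are the members, every other list gene with a site, and the 3 genes most like each member; others are marked as chosen later. Analyses used Python 3.11.15 with scipy 1.17.1, pandas 2.3.3 and numpy 2.4.6, and figures matplotlib 3.10.9.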

Additional observations from a re-analysis of the deposited data

How the results depend on the processing

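The median height of the 10 sites was 1 times that of all sites, and 0.993 to 1.03 times it under the other scales tried, which included tags per 100 nt of peak and scaling by the fold enrichment steps (chosen after the data were seen). Leaving out each replicate gave 0.972 to 1.16, the highest without replicate 3. All 60 site heights under another scale or without a replicate stayed within 1 SD of the reported value. For the heights without a replicate this was fixed in advance, since leaving out 1 of 3 values cannot move their mean by 1 SD. For the other scales it is a weak check, since the SD is that of unscaled tags. It includes the difference between replicates that scaling lessens: at the MBNL2 site of the 5' UTR it was 17.6 unscaled and 10.1 scaled by the median ratio. Of 5 genes 4 ranked above the middle of the list, and 3 to 5 under the alternatives. Among 40 ranks 4 moved by over 1 SD of the gene's ranks in the 3 single replicates. That SD was 79.4 places for EIF2C2, 34.8 for CELF2 and 10.4 for MBNL2, so wide shifts could count as unmoved. EIF2C2 lay between 105 and 188 and CELF2 between 89 and 154 under the alternatives, all counted as unmoved. The 4 that moved were as follows. TNRC6B was at 14 by summed tags, MBNL2 at 32 by summit depth and 40 by fold enrichment, and HNRNPU at 61 by fold enrichment. Summit depth is fold enrichment counted in steps, so these are not separate measures. The count of the 10 sites called by the exact multinomial test was 0 under every alternative but unscaled tags, which called 1; with shares weighted by peak length 2 of all 402 sites were called. Above the median height 5 of the 10 sites remained, 3 of them in 3' UTRs (3 to 4 when a replicate was left out, chosen after the data were seen). Merging sites within 100 nt or 1000 nt left 9 sites. The minus strand alone left 3 of the 9 list genes with a site, by construction. The stretch shared by the peaks had a median of 56 to 65 nt when a replicate was left out, as fewer peaks must overlap. No paired analysis of groups was possible because there is 1 group.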

Other observations

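A few other genes of RNA processing carried a site and were chosen after their values were seen. ZCCHC11, a uridylyltransferase that modifies miRNA precursors, had a 3' UTR site on chromosome 3 (99739929 to 99740042) with 20, 12 and 7 tags, or 13 ± 6.56 (SD, n = 3). The helicases DDX5 and DDX17, cofactors of the enzyme that cuts primary miRNAs, had a coding site of 8, 6 and 4 tags and an intron site of 19, 5 and 4 tags. GRSF1, which binds G-rich RNA, had a 3' UTR site of 18, 12 and 12 tags. ZFR, a zinc finger protein that binds RNA, had an intron site of 20, 5 and 6 tags, and LARP4B, an mRNA-binding protein, an intron site of 7, 7 and 4 tags. The spread between replicates passed the test at none of these sites (exact multinomial test, adjusted p = 0.173 for DDX17, 0.181 for ZFR and 0.866 to 0.998 for the others).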
